A study of Homo sapiens with 4 samples.

Results

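CCDC26 is a long non-coding RNA gene at 8q24 whose chromatin-associated transcripts carried 8 of the 275 single-nucleotide m6A sites listed for K562 cells. The 8 are all listed sites on the minus strand of chromosome 8 between positions 128634199 and 129683770 of hg38, the span that GENCODE release 44 gives to CCDC26 (ENSG00000229140.12, lncRNA). The gene was chosen by the number of sites listed in it, so that number is a description and not a finding. MALAT1 held 26 sites, NEAT1 also 8 and LINC00534 7.

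CCDC26 lies on the telomeric side of MYC and PVT1, has been linked to myeloid leukaemia through gains of its locus, and shares its region with enhancers used in blood cells. m6A is deposited on nascent RNA by the METTL3–METTL14 complex, which prefers the consensus DRACH (D stands for any base but C, R for a purine and H for any base but G), and nuclear m6A is read by proteins such as YTHDC1. RBFOX2 is a splicing regulator whose usual motif is UGCAUG, with the core GCAUG, often in introns. RNA purified with chromatin is enriched in unspliced transcripts, so that introns are covered.

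The study used 4 libraries of ribosomal-RNA-depleted, chromatin-associated RNA from wild-type K562 cells, which derive from a human chronic myeloid leukaemia. They are input RNA with and without MjDim1, and RNA pulled down by purified His-tagged RBFOX2 with and without MjDim1. The pulldown used added protein on isolated RNA, 1 cell line was studied, and the labels call the cells a hepatoma line although they name K562. MjDim1 allylates m6A, iodine converts the product and reverse transcription then misincorporates, so the mutated share of reads at an adenine reports on its m6A. The listed percentages are called levels here. Whether they were calibrated to the methylated share is not stated, so levels at unlike 5-mers may not be on the same scale. Each condition had 1 library, so a difference between conditions has neither a replicate nor a test. The authors' table gives 2 levels per site without naming their libraries, and their ratio (second over first). Every site has both levels above 5% (lowest 5.02%). No read counts are given, so the depth is not stated and no interval can be put on a level. Many second levels, such as 41.6667% and 27.7778% in CCDC26, equal fractions with small denominators, which few reads can give. Most first levels there need larger denominators, so the second level may be the less precise. Ranks of single sites, and differences between them in the second level or the ratio, thus rest on unknown and possibly small read numbers. The part of read number in them was not tested.

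The 8 CCDC26 sites were not spread over the 1050 kb of the gene but lay in a stretch of 95.6 kb, which is 9.11% of its length. Counted from the 5′ end of the annotated gene, the first site was 110.7 kb downstream and the last 206.3 kb downstream, and the remaining 843.3 kb towards the 3′ end held no listed site. Depth along the gene is not given, so a part without methylation and a part without coverage cannot be told apart. The stretch follows the start shared by most annotated transcripts: of 143 annotated CCDC26 transcripts, 112 begin between positions 129574687 and 129575116, a start cluster 108.7 kb inside the annotated 5′ end. The first site lay 2.06 kb and the last 97.7 kb downstream of the 5′ edge of that cluster. Between 115 and 119 of the transcripts span each site. Neighbouring sites were 5.25 to 29.3 kb apart (median 10.98 kb over 7 gaps), so that no pair can come from the same short RNA fragment. No listed site lay on the opposite strand within the gene. The nearest other listed site on the chromosome, in LINC02964 at position 125952329 on the plus strand, was 2682 kb away from the gene.

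**Figure D1:**
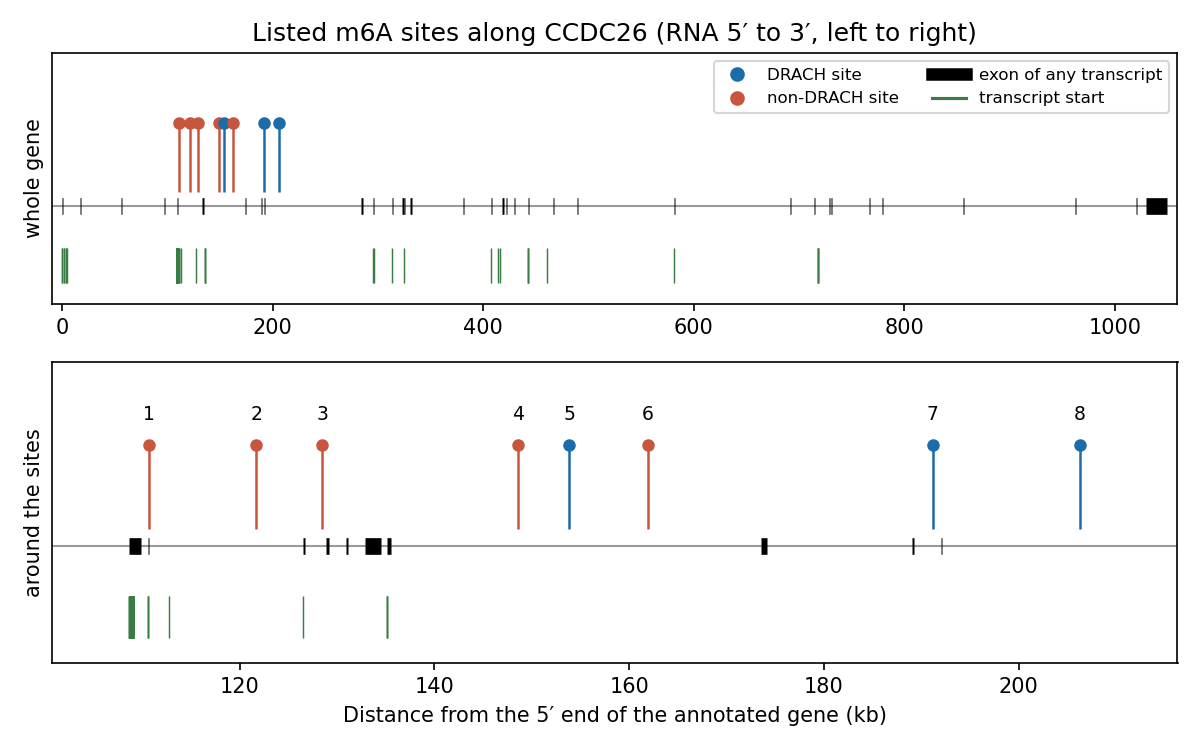
Positions of the 8 sites (pins, coloured by the motif class in the table), exons of any CCDC26 transcript (black) and annotated transcript starts (green ticks) against the distance from the 5′ end of the gene in kb, for the whole gene (upper) and the part around the sites (lower). The sites sit between 110.7 and 206.3 kb, all downstream of the start cluster at 108.7 kb and outside the exons.

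All 8 sites were intronic: none lay in an exon of any CCDC26 transcript, where 78 merged exons cover 4.87% of the gene. Of the other 267 listed sites, 115 were intronic on their own strand (43.1%, 95% Wilson interval 37.3% to 49.1%). The interval covers counting error only, as do all intervals given here. For CCDC26 the interval is 67.6% to 100%, and because its sites share a gene they are not independent draws. The trait is not particular to CCDC26, since all 7 sites of LINC00534 were intronic too. Among the 267 are the 26 sites of MALAT1 and the 8 of NEAT1, with 0 intronic in each.

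The sites fell into 6 exon-free intervals. Site 1, numbered in RNA order, was the one closest to an exon, 59 nt downstream of an exon edge in an interval of 1.66 kb. Of the 143 transcripts, 3 start within 1 kb upstream of it, the nearest 123 nt away, just beyond the 100 nt downstream of a start that were counted as promoter. Sites 4, 5 and 6 shared the longest interval, 38.0 kb without an annotated exon, at 13045, 18295 and 26394 nt from the preceding exon. Site 3 lay 367 nt upstream of an exon and site 7 lay 840 nt upstream of one. Sites 2 and 8 were deep in introns, with the closest exon 4840 nt and 3178 nt away. By the promoter rule (1 kb upstream to 100 nt downstream of any transcript start, either strand) no CCDC26 site was in a promoter (0 of 8, 95% interval up to 32.4%), against 90 of the other 267 sites (33.7%, 28.3% to 39.6%), of which 25 were in MALAT1. The intronic sites of other genes were in promoters at 10 of 115 (8.70%) and those of LINC00534 at 0 of 7. MIR3686, a microRNA gene at positions 129484057 to 129484142 inside the CCDC26 span, lies between sites 7 and 8 and held no site.

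The adenine followed a G at all 8 sites, as it did at 242 of the other 267 (90.6%). The 5-mer of each site, with the site at its middle A, is given because the table classifies sites by it. AGAUG, the non-canonical 5-mer found most often in the whole list, was the 5-mer of sites 1, 2 and 6. Sites 5, 7 and 8 were in DRACH. Sites 3 and 4 were in neither class, and no other listed site shares the 5-mer of site 3. AGAUG thus made up 3 of 8 sites in CCDC26 (37.5%, 13.7% to 69.4%) and 45 of 267 elsewhere (16.9%, 12.8% to 21.8%), with overlapping intervals. DRACH made up 3 of 8 (37.5%) and 90 of 267 elsewhere (33.7%, 28.3% to 39.6%). In RNA order the 3 DRACH sites were the fifth, the seventh and the eighth, and sites 1 to 4 were all outside DRACH. Few of the candidate adenines in the stretch were listed: it holds 1643 DRACH and 124 AGAUG on the minus strand, of which 0.183% and 2.42% were listed. Whether the others were unmethylated, methylated below the authors' limits or not covered cannot be told apart.

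At every CCDC26 site the level listed second was higher than the level listed first. The share over all 275 sites is 85.8%, and the count of 8 of 8 (interval 67.6% to 100%) is not far from that background. Listing required a minimum number of mutated reads, so a library with few reads at a site could list only a high level. The part of this limit in the direction and the ratios was not tested. The first level ranged from 6.38% to 14.3% (median 9.62%) and the second from 12.5% to 41.7% (median 22.2%). The ranges overlapped only where the lowest second level, at site 3, was below the highest first level, at site 7.

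Site 1 (position 129573059, AGAUG), the most 5′ of the sites, was listed at 6.90% and 41.7%, a ratio of 6.04. That is the widest difference in CCDC26, 34.8 percentage points, and its ratio ranked 9 of 275 in the list. Its first level, by contrast, ranked 208 of 275, and it was the second lowest in the gene. Site 2 (position 129562079, AGAUG) was listed at 12.3% and 20.8%, a ratio of 1.69. Site 3 (position 129555308, UGAGG) had the lowest levels of the gene in both columns, 6.38% and 12.5%, with a ratio of 1.96. Thus a site outside both motif classes had the lowest levels.

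Site 4 (position 129535189, UGAUC) was listed at 10.3% and 18.5%, a ratio of 1.80. Site 5 (position 129529939, AGACA) was listed at 12.2% and 27.8%, a ratio of 2.28. Site 6 (position 129521840, AGAUG) was listed at 8.97% and 25%, a ratio of 2.79. These sites of the shared 38.0-kb interval thus differed by 9.26 points in the second level and by 3.20 points in the first.

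Site 7 (position 129492588, AGACA) had the highest first level, 14.3%, against a second level of 21.7%, and with 1.52 the lowest ratio of the gene. Site 8 (position 129477465, AGACU), the most 3′ of the sites, was listed at 7.10% and 22.7%, a ratio of 3.20. The highest ratios, at sites 1 and 8, were thus at opposite ends of the stretch. Both had first levels near the lowest of the gene, and since the ratio divides by the first level, a high ratio and a low first level are not separate measurements.

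**Figure D2:**
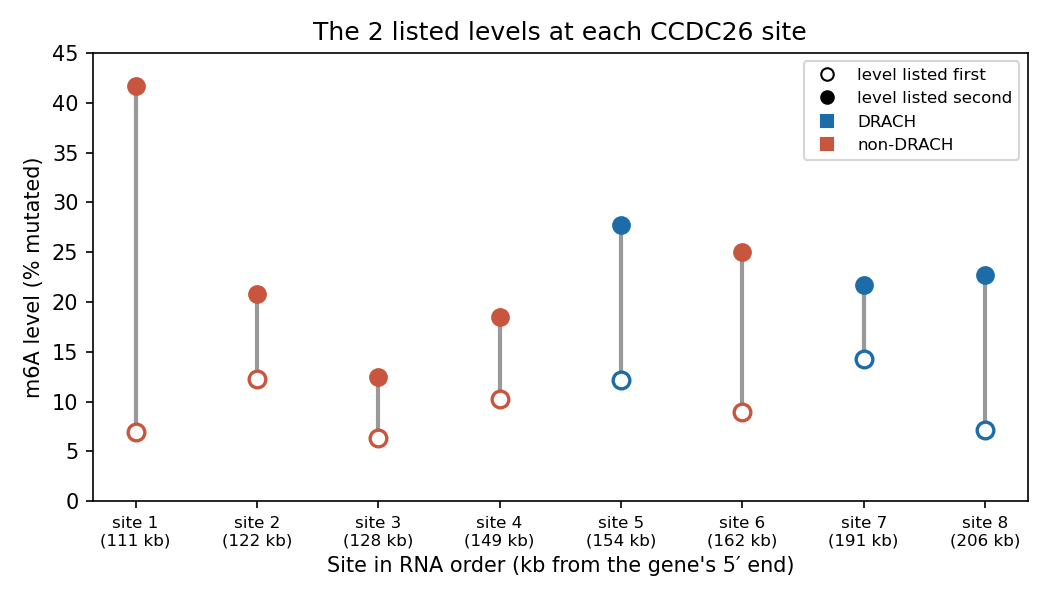
The first (open) and second (filled) m6A level in percent at each CCDC26 site, ordered from 5′ to 3′ with the distance from the 5′ end of the gene in kb and coloured by motif class. The filled point is above the open one at all 8 sites, with the widest gap at site 1 (6.90% and 41.7%) and the narrowest at site 3 (6.38% and 12.5%).

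Within CCDC26 the second level varied more than the first: the highest was 3.33-fold the lowest in the second and 2.24-fold in the first. Without site 1 the second level spanned 2.22-fold, about as much as the first. The ratios of the remaining sites then reached 3.20, their median moved from 2.12 to 1.96 and their mean from 2.66 to 2.18. A ratio of at least 2 was met at 4 of 8 sites (sites 1, 5, 6 and 8), against 42.5% over all 275 sites. By motif, the 3 AGAUG sites had ratios of 1.69, 2.79 and 6.04 and the 3 DRACH sites 1.52, 2.28 and 3.20, so that the classes overlapped. The pair outside both classes had 1.80 and 1.96, inside the range of each.

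Set beside sites of the same 5-mer in other RNAs, sites 1 and 8 ranked near the top by ratio and the others did not. The 45 AGAUG sites elsewhere had a median first level of 10.3% (5.41% to 23.9%), a median second level of 21.7% (5.03% to 57.1%) and a median ratio of 2.03. Among all 48 AGAUG sites the ratio of site 1 ranked 3, that of site 6 ranked 14 and that of site 2 ranked 30. Site 8 ranked 3 by ratio among the 35 AGACU sites, whose members elsewhere had a median ratio of 1.42. Sites 5 and 7 ranked 7 and 9 among the 12 AGACA sites, and site 7 had the highest first level of these. Site 4 ranked 5 of 6 by ratio at UGAUC. Intronic sites elsewhere, the closer comparison, had a median ratio of 2.63 at AGAUG (22 sites) and 1.62 at AGACU (13 sites). At AGACA it was 2.31 (5 sites) and at UGAUC 2.93 (3 sites).

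The median ratio of the 8 CCDC26 sites, 2.12 (range 1.52 to 6.04), lay close to that of the 115 intronic sites of other genes, 2.26 (quartiles 1.57 and 3.40), and 6 of the 8 ratios fell within those quartiles. At these intronic sites the second level was higher at 107 (93.0%, 86.9% to 96.4%). The medians of their levels were 12.5% and 29.0%, both above those of CCDC26. MALAT1 and NEAT1 had lower median ratios: the 26 MALAT1 sites had a median ratio of 1.09 (0.603 to 1.89) and the 8 NEAT1 sites 1.49 (0.917 to 4.07). MALAT1 and NEAT1 are abundant nuclear RNAs, of which NEAT1 forms the scaffold of paraspeckles. A ratio of at least 2 was met at 0 of the 26 MALAT1 sites and at 4 of the 8 CCDC26 sites (50%), against 69 of the 115 intronic sites of other genes (60%) and 4 of the 7 in LINC00534. The ranges of CCDC26 and MALAT1 nevertheless overlapped between 1.52 and 1.89, and with sites as the only units and 1 library per level this difference was not tested. The part that the limit on mutated reads has in it, through unlike depth, was not tested either.

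**Figure D3:**
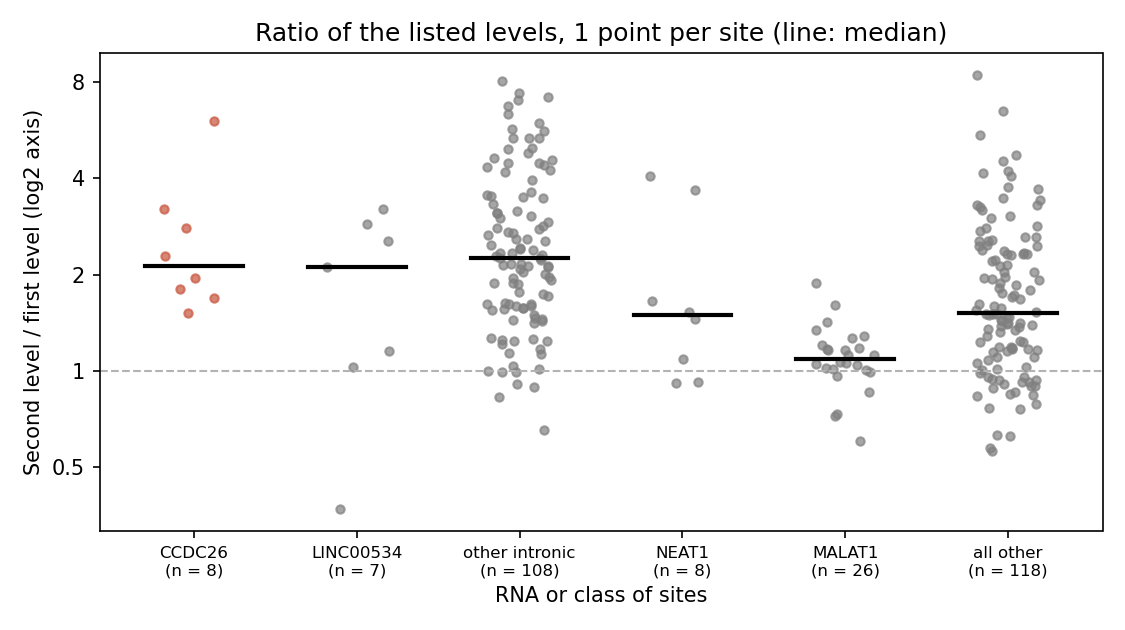
Second level over first level (log2 axis) for each listed site, with black lines at the medians, for CCDC26, LINC00534, the 108 intronic sites of the remaining genes, NEAT1, MALAT1 and the 118 sites that are left. CCDC26 points lie between 1.52 and 6.04 around a median of 2.12, close to that of the intronic sites and above that of MALAT1 (1.09).

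Of 19 other genes with at least 3 sites, those whose median log2 ratio was nearest to that of CCDC26 (1.08) were LINC00534, XIST and CCNL2. LINC00534, another long non-coding gene on chromosome 8 (467 kb), had the same median log2 ratio of 1.08 over 7 sites, all of them intronic. Its individual ratios were wider, from 0.368 to 3.20, and at 6 of its 7 sites the second level was the higher one. XIST, the RNA that coats the inactive X chromosome, had a median of 1.04 over 6 sites, none intronic. CCNL2, which encodes a cyclin of the splicing machinery, had 1.03 over 3 sites. Likeness of the medians is thus found for exonic and for intronic sites.

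**Figure D4:**
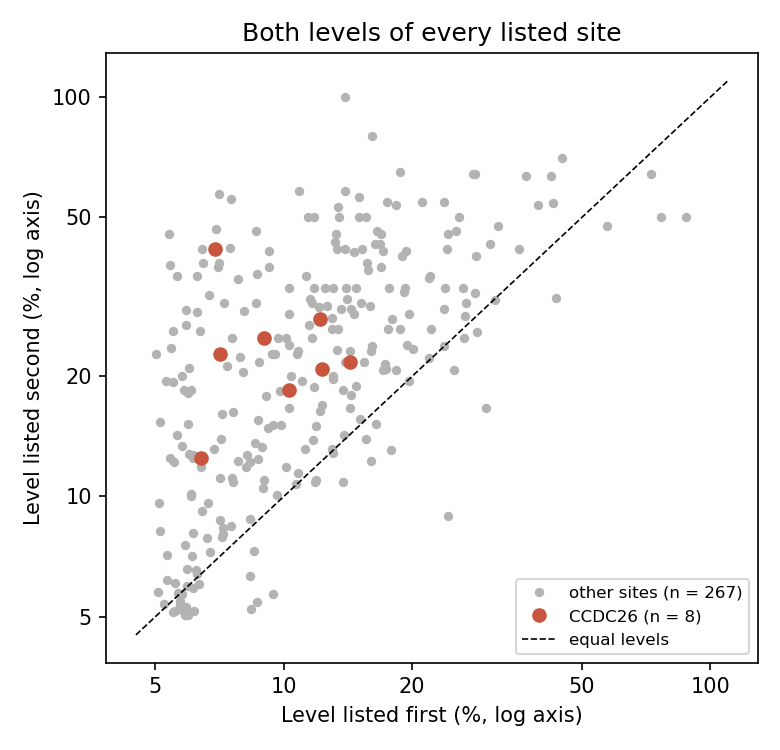
Level listed second against level listed first (both in percent, log axes) for the 8 CCDC26 sites and the 267 other sites, with a dashed line at equal levels. All CCDC26 points lie above the line, with first levels of 6.38% to 14.3% inside the cloud of the other sites.

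An RBFOX2 motif lay within 50 nt of few CCDC26 sites, while 3 of the 8 had the core GCAUG within 100 nt. GCAUG, searched on the RNA strand and including those within UGCAUG, lay wholly within 50 nt of 1 of the 8 sites (12.5%, 95% interval 2.24% to 47.1%), at site 3, where it begins 25 nt downstream. For the other 267 sites the count was 91 (34.1%, 28.7% to 40.0%), for the intronic sites of other genes 47 of 115 (40.9%, 32.3% to 50.01%) and for LINC00534 4 of 7. Of all adenines in the CCDC26 stretch, 9.10% have GCAUG that near, close to the share at the 8 sites. The intervals of CCDC26 and the other sites overlap, so a lower share at CCDC26 was not shown with 8 sites. UGCAUG lay within 50 nt of none of the 8 and of 48 of the other sites (18.0%), where 0 of 8 allows up to 32.4% (upper Wilson bound).

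The nearest GCAUG lay 56 nt upstream of site 4, 92 nt upstream of site 8 and 120 nt upstream of site 5. It lay 145 nt downstream of site 7, 402 nt downstream of site 2 and 427 nt downstream of site 6. Within 1000 nt of site 1, the site with the highest ratio, no GCAUG was found, whereas site 3, the only one with GCAUG within 50 nt, had the lowest levels. The stretch holds 95 GCAUG (0.994 per kb), close to the 0.878 per kb of the whole gene, and 34 of them are part of UGCAUG. A letter match is no evidence of binding, and its absence says nothing about RBFOX2 at these sites.

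**Figure D5:**
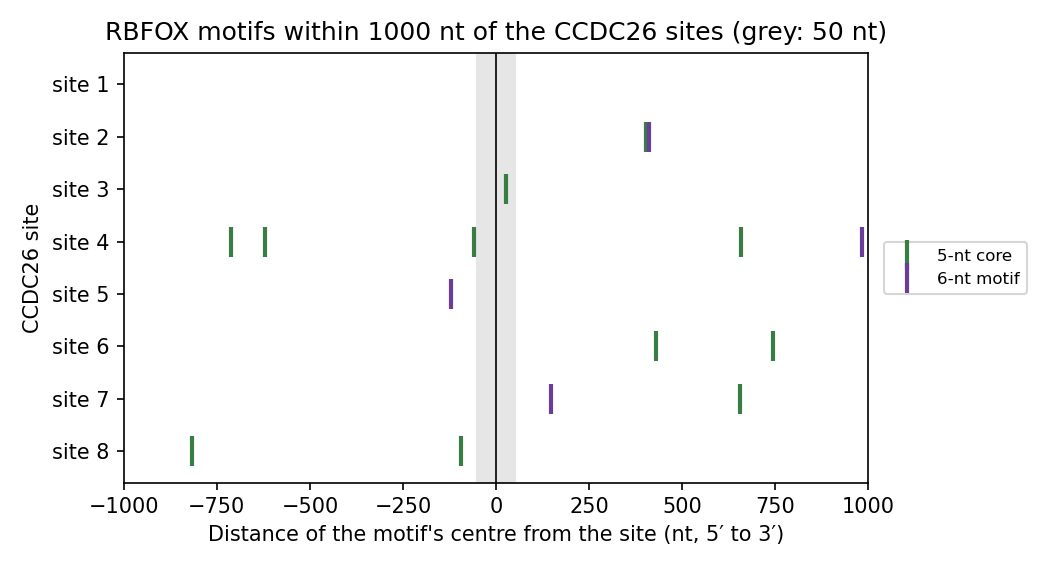
Centres of the RBFOX core motif (green) and of its longer 6-nt form (purple) within 1000 nt of each CCDC26 site, by distance from the site in nt, with the 50 nt to either side shaded. A motif falls in the shaded window at site 3, and site 1 has none in the plotted range.

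The GC share around the sites was close to that of the stretch they lie in. In the window of 50 nt to either side of each site its median was 37.6%, against 37.9% over the whole stretch. The extremes were 28.7% at site 6 and 46.5% at site 2. The median was 40.6% at the other listed sites and 39.6% at the intronic sites of other genes. It was 36.6% in MALAT1, 38.1% in NEAT1 and 43.6% in LINC00534. Of the 8 sites, 2 stood in repeated sequence. The window around site 7 aligned to 51035 places of hg38, and that around site 6 to 1328, over at least 80 nt at an identity of at least 80% and its own place included. The other 6 sites each aligned to their own place alone. The 31 nt around every site occur once in hg38, while the 21 nt around site 7 occur 7 times and those around site 6 occur 5 times. Reads from other copies could therefore add to the levels of sites 6 and 7, and their part in these levels was not tested. Without both sites the median ratio was again 2.12, with the second level above the first at each of the remaining 6.

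No listed site lay in the searched genes near CCDC26 or of the m6A pathway. With 275 listed sites in all, few genes can hold one, so these counts are descriptions and not results about the genes. The share over all annotated genes was not computed. Of 25 gene names around CCDC26 at 8q24, among them MYC and PVT1, 17 are in the annotation and 0 held a listed site. Of 17 m6A writers, readers and erasers, with RBFOX2, 0 held one. Of 13 names of genes of the cell line, 2 held sites: the globin genes HBG2 and HBE1, with 3 each. Their annotated spans (252 and 237 kb) overlap, so that these are the same positions, all of them intronic. Other long annotated genes were given these same 3 sites, since a site counts for every gene that spans it on its strand. The sites are thus not shown to belong to globin RNA. The table lists sites and not RNA levels, so a gene without a site may be unmethylated, methylated below the authors' limits, weakly expressed or not covered.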

How the data were processed

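Reads were trimmed, deduplicated by molecular identifier with BBMap, and mapped to hg38 by STAR before the authors ran VarScan on pairs of libraries. Only adenines past their limits on P value, coverage, mutant reads and frequency, also relative to the untreated library, remain. Tool versions in the submitters' processing notes are 2.10 for Cutadapt (adapter trimming) and 2.7.3a for STAR. The deposited table holds 2 levels in percent and their ratio. The ratio equals the second level over the first at all 275 sites (relative tolerance 1e-06), and the deposited 5-mer matches hg38 at all 275. Columns of single samples left unused numbered 0.

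Sites were read with Python 3.11.15, numpy 2.4.6 and scipy 1.17.1 and drawn with matplotlib 3.10.9. A site was intronic if a gene of GENCODE release 44 held it on its strand and no exon of any transcript on that strand did. The start cluster is the window of 500 nt with the most transcript ends. Near copies were found with blastn 2.17.0 (E-value 1e-05). Motif and distance functions were tested on simulated data. No test was run, since each condition has 1 library. Beside CCDC26, the text names MALAT1, NEAT1, genes of fixed lists and the 3 genes nearest in median log2 ratio among those with at least 3 sites. The gene and lists were chosen with earlier results of these data known. No flanking sequence is printed here.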

Additional observations from a re-analysis of the deposited data

How the results depend on the processing

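Of 56 alternative values, 51 stayed within 1 SD over the CCDC26 sites of the median they replace or within 1.5 times the count. Some of them could not move. No site lies within 50 nt of another and every 31-nt sequence occurs once, so those settings keep all 8 sites. A mean also never lies more than 1 SD from its median. The count of 51 is thus no measure of robustness. With each site left out in turn, the median first level was 8.97% to 10.3%, the median second level 21.7% to 22.7% and the median ratio 1.96 to 2.28. Restricting the list to the 4 sites with both levels at least 10% gave a median ratio of 1.75. A ratio of at least 2 was met at 4 sites in place of 8 with the second level merely higher. GCAUG lay within 20 nt of 0 sites, within 100 nt of 3, and UGCAUG within 50 nt of 0. Promoters reaching 1 kb to either side of a start held 1 site. Leaving out the 2 sites in repeated sequence was chosen after seeing the data. The transcript with the most exonic bases spans 0 of the sites, so it gave no count of introns. No paired analysis was possible because each condition has 1 library and the levels carry no library names. Precision is limited by the unknown coverage per site.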
